A study of Mus musculus with 2 samples.

Results

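Of the 1806 HindIII sites listed as contacts of the Pou5f1 enhancer, 228 (12.6%) lay on chromosome 17 at least 33 Mb from the Pou5f1 gene start (mm9 assembly). They were chosen by distance alone, and they made up 18.75% of the 1216 listed sites of the bait chromosome. All 228 lay on the distal side of Pou5f1, since the proximal side is too short to hold such sites outside the first 3 Mb of the chromosome. They fell into 5 enriched regions found in both replicates, between 35.2 and 52.8 Mb away. The threshold ran through a stretch without listed sites: the last site below it was 31.5 Mb away and the first beyond it 35.2 Mb away.

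The contacts were measured by enzyme-based 4C-Seq in E14 cells, an established line of mouse embryonic stem (ES) cells grown with serum and LIF, a cytokine that maintains self-renewal. Chromatin was fixed with formaldehyde, cut with HindIII, ligated, cut again with DpnII, and the DNA joined to an enhancer upstream of Pou5f1 was amplified by inverse PCR and sequenced. The labels give 1 group of 2 replicates, without a treatment or a control bait. The lists hold positions only, so the number of reads behind a site is not known, and library totals were not used here. Because no expression values were available, the cell type could not be checked against markers.

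Pou5f1 encodes Oct4, a transcription factor needed for pluripotency. Loci far apart on a chromosome can meet in the nucleus, and such contacts become rarer with distance along the chromosome. Active, gene-rich stretches tend to neighbour other active stretches and inactive stretches tend to neighbour inactive ones. 4C-Seq counts ligations over many cells, and ligation reports proximity without telling whether the contact has a role. HindIII can cut only at its motif, so a locus is seen only at its HindIII motifs, and the unlisted motifs of the same regions served as the comparison for the listed ones.

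For each region the listed site closest to the start of a protein-coding gene is shown. Closeness to a start does not tell whether the gene has a part in the contact. Each sequence is the mm9 plus strand with 30 bases on both sides of the HindIII motif, which is in capitals. The sites lay in Emilin2 (an extracellular matrix glycoprotein; intron, chr17:71660543-71660608), upstream of Nlrc4 (an inflammasome sensor adaptor; intergenic, chr17:74858850-74858915), in Galm (galactose mutarotase; intron, chr17:80527337-80527402), in Haao (an enzyme of tryptophan breakdown; coding exon, chr17:84245949-84246014) and upstream of Ttc7 (a tetratricopeptide repeat protein; intergenic, chr17:87681310-87681375). Their distances from the gene starts were 323, 432, 556, 151 and 886 bp. The sites of Nlrc4, Haao and Ttc7 lay in stretches covered in both replicates, and those of Emilin2 and Galm in stretches of replicate 1 alone.
Emilin2: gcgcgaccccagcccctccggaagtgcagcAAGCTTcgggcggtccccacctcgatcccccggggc
Nlrc4: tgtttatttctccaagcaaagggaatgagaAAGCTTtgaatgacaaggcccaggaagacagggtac
Galm: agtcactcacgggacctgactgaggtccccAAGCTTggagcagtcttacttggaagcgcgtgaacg
Haao: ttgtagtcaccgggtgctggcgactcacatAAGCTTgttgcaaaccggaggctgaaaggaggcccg
Ttc7: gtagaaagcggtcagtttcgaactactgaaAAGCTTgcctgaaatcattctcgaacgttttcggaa

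A further pair was chosen after its values were seen, from the genes with most of their HindIII motifs listed. Tgif1 encodes a homeobox repressor of TGF-beta and Nodal signalling, and Calm2 encodes calmodulin, the calcium sensor. Both sites were intronic, at chr17:71201950-71202015 (906 bp inside Tgif1) and chr17:87845270-87845335 (975 bp inside Calm2), and both lay in stretches covered in both replicates.
Tgif1: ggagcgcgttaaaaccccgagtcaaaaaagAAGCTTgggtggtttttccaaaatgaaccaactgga
Calm2: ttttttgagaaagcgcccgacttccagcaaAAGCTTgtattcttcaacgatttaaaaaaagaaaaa
GC content of the 1 kb around these 7 sites ran from 40.9% at Nlrc4 to 61.2% at Emilin2, with 50.5% at Galm, 53.2% at Ttc7, 54.4% at Haao, 56.1% at Tgif1 and 58.6% at Calm2. The median over all 228 sites was 45.4%, so the site of Nlrc4 lay below it and the other 6 lay above it. These 7 sites were picked by closeness to a gene start or after their values were seen. They thus do not represent the 228.

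The regions are named here by the gene with the most listed sites, and their extents are those called in each replicate. The Dlgap1 region ran from 70876126 to 71697769 in replicate 1 and from 70862310 to 71598520 in replicate 2, and the part in both was 86.5% of the part in either. The Birc6 region ran from 74778484 to 75438036 in replicate 1 and from 74583867 to 75090042 in replicate 2, with 36.5% in both. The Arhgef33 region ran from 80321275 to 80788262 in replicate 1 and from 80599708 to 81402980 in replicate 2, with 17.4% in both. In the Birc6 region the shared part was 47.2% of the replicate 1 extent and 61.6% of the replicate 2 extent, and in the Arhgef33 region 40.4% and 23.5%.

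The Thada region ran from 83664488 to 84838122 in replicate 1 and from 83672350 to 84527698 in replicate 2, with 72.9% in both. The Fbxo11 region ran from 87440527 to 88494996 in replicate 1 and from 87520865 to 88648052 in replicate 2, with 80.7% in both. Replicate 1 covered 4176 kb in the 5 regions and replicate 2 covered 4028 kb (mean 4102 ± 105 kb, SD, n = 2). Of the length in either replicate, 59.2% was in both, and 179 of the 228 sites (78.5%) lay in the regions of replicate 2 as well. By region these were 96.0% of the sites in the Dlgap1 region, 62.5% in the Birc6 region, 48.0% in the Arhgef33 region, 70.8% in the Thada region and 94.6% in the Fbxo11 region. A further region of replicate 2 alone, from 88674026 to 89252319, held no listed site.

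**Figure D1:**
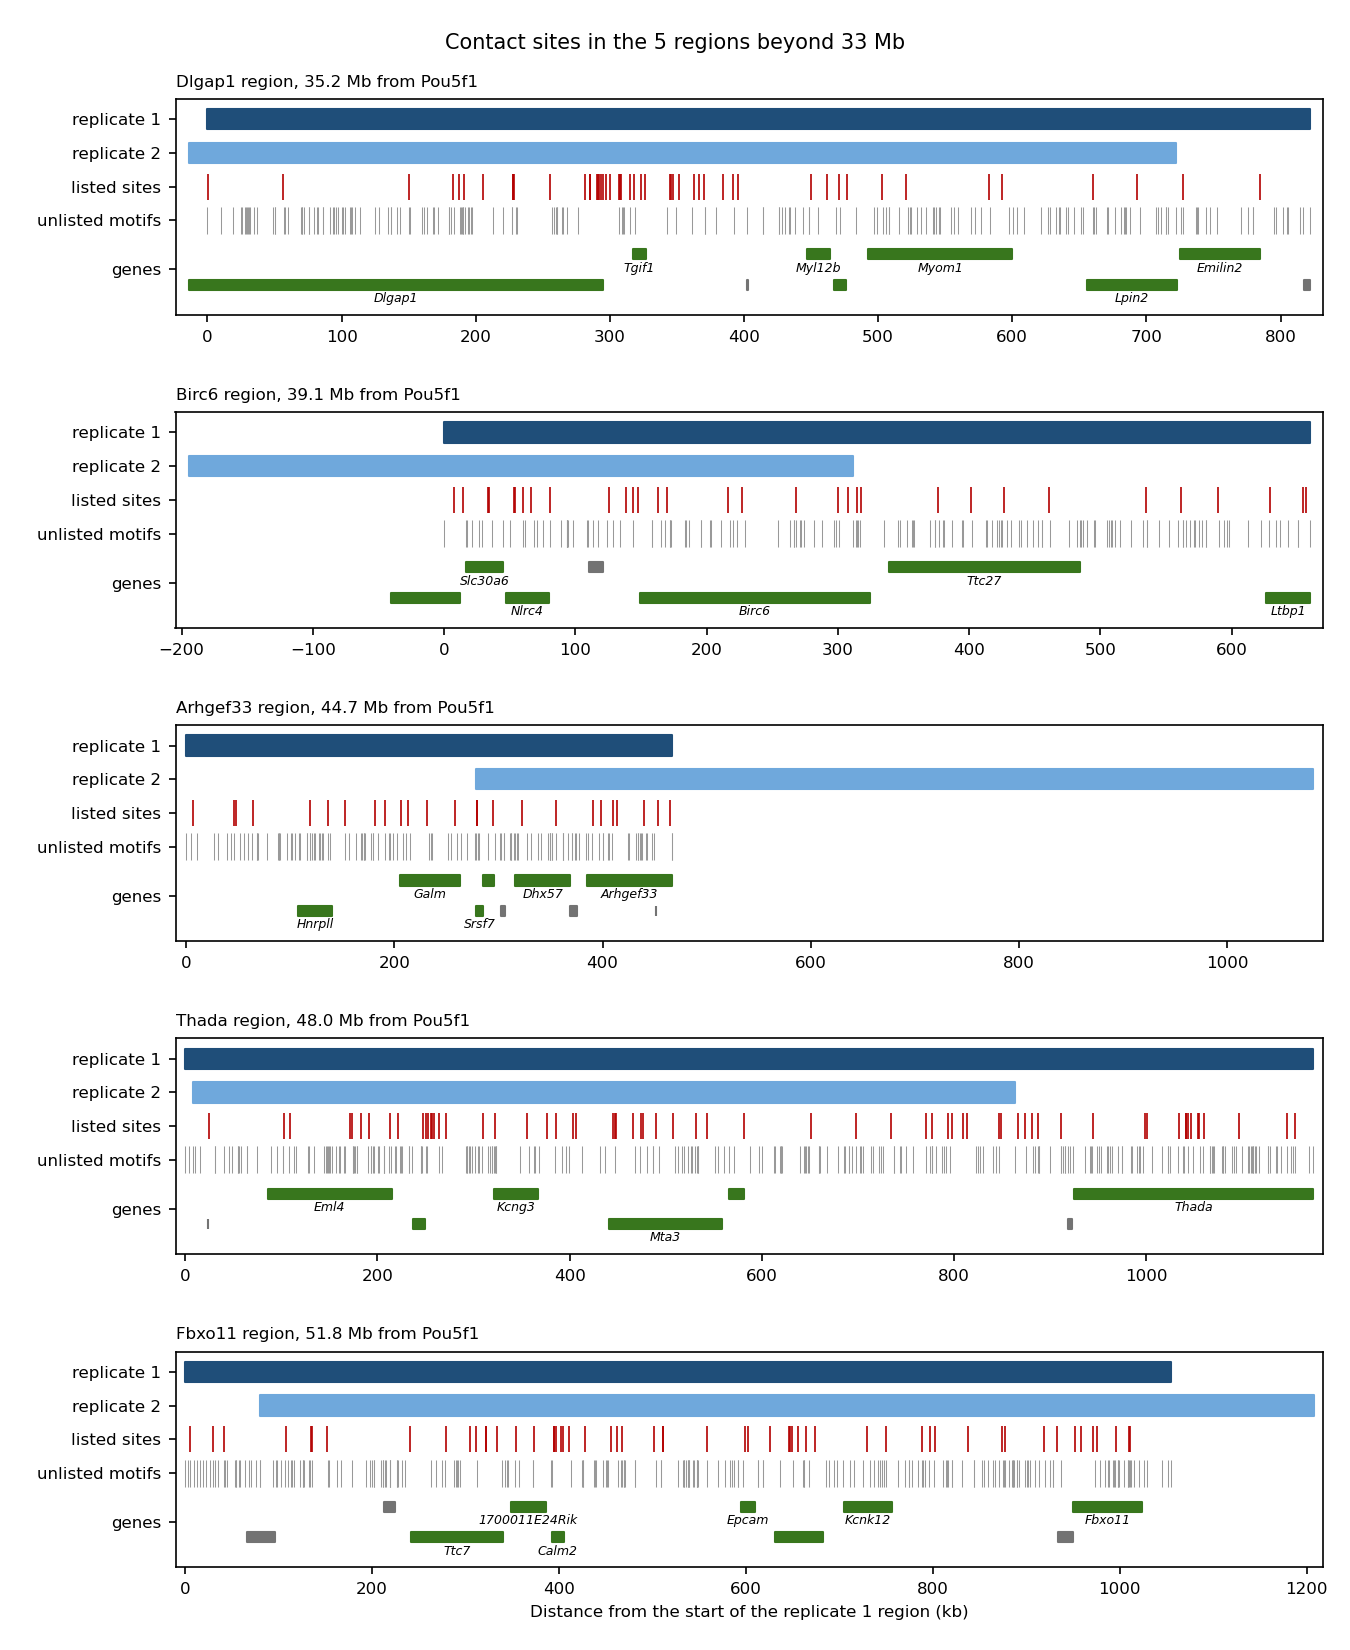
Map of the 5 regions, each with the distance from the start of the replicate 1 region in kb on the horizontal axis. Bars show the extent called in each replicate, red ticks the listed sites, grey ticks the unlisted HindIII motifs of the replicate 1 region, and the lowest bars the protein-coding genes that overlap it (green with a site, grey without, most of those with at least 2 sites named). Listed sites stop at the ends of the replicate 1 regions, and the run of 11 consecutive listed motifs stands at the 3′ end of Dlgap1.

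The extent of the table matters for what follows. The parts of these regions that only replicate 2 covered held 313 HindIII motifs, of which 0 were listed, so shares were taken over the motifs in the replicate 1 regions. The table does not say which replicate contacted a site.

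Within the 5 regions, 228 of 1188 HindIII motifs (19.2%) were listed, with an exact (Clopper-Pearson) 95% interval of 16.99 to 21.5%. Over all regions of chromosome 17 found in both replicates, 26.2% of 4637 motifs were listed (29.4% of 4139 without the stretch around the bait that held 498 motifs and no listed site). The intervals cover counting error only, and neighbouring motifs are not independent, so these intervals are too narrow and the p-values below too small. By region, 50 of 246 motifs (20.3%, 15.5 to 25.9%) were listed in the Dlgap1 region, 32 of 177 (18.1%, 12.7 to 24.6%) in the Birc6 region, 25 of 152 (16.4%, 10.9 to 23.3%) in the Arhgef33 region, 65 of 329 (19.8%, 15.6 to 24.5%) in the Thada region and 56 of 284 (19.7%, 15.3 to 24.8%) in the Fbxo11 region. The intervals of all 5 regions overlapped. A two-sided Fisher exact test did not separate the regions (p = 0.886, adjusted p = 0.941, Benjamini-Hochberg over 17 tests).

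In stretches covered in both replicates, 179 of 861 motifs (20.8%, 18.1 to 23.7%) were listed, against 49 of 327 (15.0%, 11.3 to 19.3%) in stretches of replicate 1 alone. This difference was not tested. The nearest comparison along the chromosome was the 2 regions between 15 and 33 Mb, which began 20.02 and 29.9 Mb from Pou5f1 and held 232 sites. There 232 of 1089 motifs (21.3%, 18.9 to 23.9%) were listed. The odds of listing beyond 33 Mb were 0.877 of those at 15 to 33 Mb (95% interval 0.711 to 1.08, two-sided Fisher exact p = 0.210, adjusted p = 0.298). When only motifs whose 30 bases on both sides were unique among HindIII motifs of the genome were counted, a choice made after the data were seen, the odds ratio was 0.770 (adjusted p = 0.0348, Fisher exact test). Each window was scored by the authors against a local background, so shares at different distances do not compare contact frequencies.

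**Figure D2:**
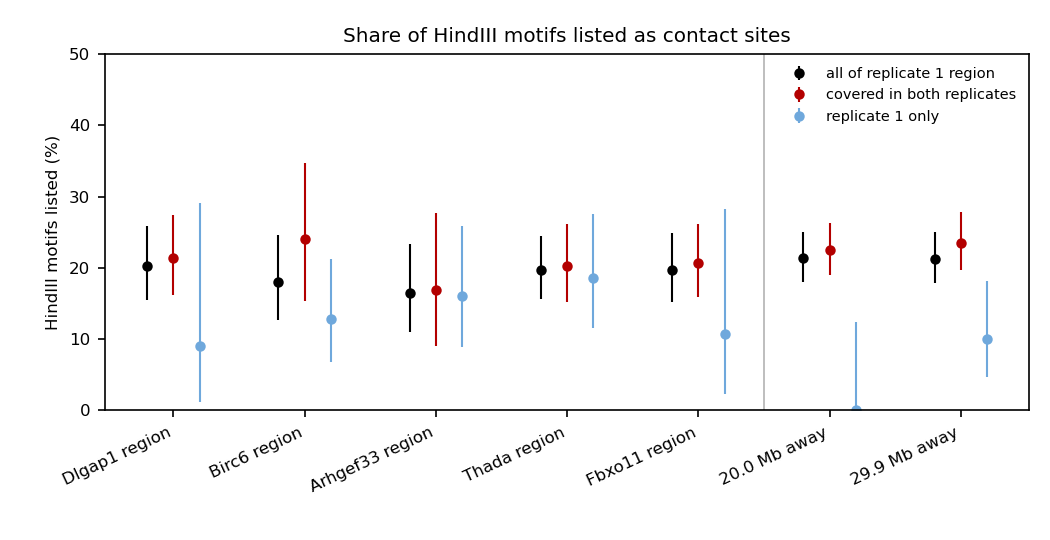
Percent of HindIII motifs listed in each of the 5 regions beyond 33 Mb (left of the line) and in the 2 regions 15 to 33 Mb away (right), with exact 95% intervals. Points show all motifs of the replicate 1 region, those covered in both replicates and those of replicate 1 alone. The totals of the 5 regions lie between 16.4 and 20.3% and their intervals overlap.

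The distal chromosome carried few genes, and the contacted regions were denser in genes than the part called in neither replicate. Beyond 33 Mb, chromosome 17 had 127 starts of protein-coding genes (4.77 per Mb), against 14.7 per Mb from 3 Mb up to that point. The 5 regions held 39 of them in replicate 1 (9.34 per Mb, or 9.68 per Mb with the extents of replicate 2), and the distal chromosome outside every region called in either replicate held 76 starts in 20.9 Mb (3.64 per Mb). The densities were 8.52 per Mb in the Dlgap1 region, 9.10 in the Birc6 region, 19.3 in the Arhgef33 region, 5.96 in the Thada region and 9.48 in the Fbxo11 region. Every region thus exceeded the uncalled distal chromosome, and the Arhgef33 region was the densest. The 2 regions at 15 to 33 Mb had 21.7 per Mb. These densities were not tested.

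Most of the 228 sites lay in or between genes without touching an exon. By the annotation of protein-coding genes, 120 were intronic, 90 intergenic, 10 in coding exons, 6 in untranslated regions and 2 in other exons. Intergenic here means outside protein-coding genes: 138 sites lay in a protein-coding gene and 147 in a gene of any biotype. The regions overlapped 43 protein-coding genes, of which 40 held a HindIII motif and 32 held a listed site. Of the 39 gene starts, 29 had a listed site within 10 kb and 15 within 2 kb, and the median distance from a start to its nearest site was 4844 bp. For comparison, 19.2% of all motifs in the regions were listed, and most starts had several motifs within 10 kb. These counts of genes and starts were not tested and are description only.

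Listed motifs lay closer to gene starts than unlisted ones in the same regions. Within 10 kb of a protein-coding gene start lay 47 of 228 listed motifs (20.6%) and 134 of 960 unlisted motifs (14.0%). The odds ratio was 1.68 (1.13 to 2.48, two-sided exact conditional Mantel-Haenszel test with region as stratum, p = 0.00866, adjusted p = 0.0294). At 2 kb, a distance added after the data were seen, the counts were 15 of 228 (6.58%) and 18 of 960 (1.88%), with an odds ratio of 3.88 (1.78 to 8.36, exact p = 0.000286 without adjustment). The listed share was 26.4% of 91 motifs within 5 kb of a start and 14.5% of 172 motifs over 100 kb away. The call at 10 kb was lost without the Dlgap1 region (odds ratio 1.59, adjusted p = 0.107, exact test) or the Thada region (1.51, adjusted p = 0.183, exact test). It was also lost at 5 kb (1.63, adjusted p = 0.181, exact test), with starts of genes of every biotype (1.44, adjusted p = 0.0968, exact test) and with starts of every transcript (1.43, adjusted p = 0.178, exact test), and kept at 25 kb (1.53, adjusted p = 0.0231, exact test).

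Listed motifs lay in exons more often than unlisted ones. In exons lay 18 of the listed motifs (7.89%) and 30 of the unlisted (3.13%), an odds ratio of 2.69 (1.38 to 5.10, exact p = 0.00216, adjusted p = 0.0154). Of the 10 coding-exon sites, 5 lay in the Birc6 region, and without that region the odds ratio was 2.26 (adjusted p = 0.0931, exact test). Gene bodies as a whole held 138 listed motifs (60.5%) and 521 unlisted ones (54.3%), which did not pass (odds ratio 1.33, 0.968 to 1.84, exact p = 0.0744, adjusted p = 0.181).

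Gene bodies were also where the regions differed among themselves. In the Dlgap1 region, 32 of 50 listed motifs (64.0%) and 151 of 196 unlisted motifs (77.0%) lay in a protein-coding gene. In the Fbxo11 region the figures were 30 of 56 (53.6%) and 64 of 228 (28.1%). The difference between the 5 regions, a comparison added after the data were seen, passed (likelihood ratio test in a logistic model, n = 1188 motifs, p = 0.00429, adjusted p = 0.0301 over 7 such comparisons). For the other 6 properties the adjusted p was at least 0.358. Without the Dlgap1 region, the odds ratio for gene bodies over the other 4 regions was 1.66 (adjusted p = 0.0169, exact test), and without the Fbxo11 region it was 1.01 (exact p = 1).

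**Figure D3:**
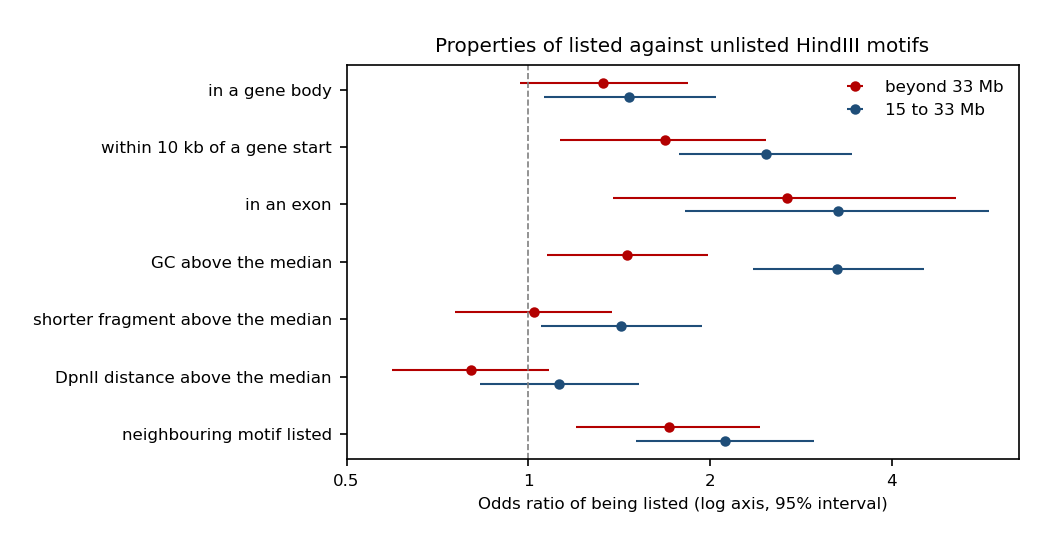
Odds ratios of listing (log axis, bars are 95% intervals) for 7 properties of HindIII motifs, with region as stratum, beyond 33 Mb and 15 to 33 Mb from Pou5f1. Beyond 33 Mb the odds ratios for a gene start, an exon, GC content and a listed neighbour have intervals above 1, from 1.46 for GC content to 2.69 for exons.

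GC content differed between listed and unlisted motifs as well. GC content of the surrounding 1 kb was above the median of 44.5% at 131 of 228 listed motifs (57.5%) and at 461 of 960 unlisted motifs (48.0%). The odds ratio was 1.46 (1.07 to 1.98, exact p = 0.0134, adjusted p = 0.0381). It was carried most by the Dlgap1 region, where it was 3.13 (1.56 to 6.51), and without that region it was 1.18 (adjusted p = 0.484, exact test). The call was also lost without the Thada region (1.52, adjusted p = 0.0587, exact test), with only motifs that had a unique flank (1.43, adjusted p = 0.0552, exact test) and with both flanks unique, added after the data were seen (1.42, adjusted p = 0.0659, exact test). A read has to be placed at a motif before that motif can be listed, so sequence uniqueness bears on which motifs could be listed at all and is given as a check of the table. All 228 listed motifs had a unique flank of 30 bases on at least 1 side, as did 933 of 960 unlisted motifs (lower bound of the odds ratio 1.68, exact p = 0.00496, adjusted p = 0.0211). The call was lost in stretches covered in both replicates (adjusted p = 0.0533, exact test) and without the Dlgap1 region (0.0564), the Birc6 region (0.0558) or the Fbxo11 region (0.0900). A unique flank on both sides was found at 228 and 900 motifs (adjusted p = 6.49e-05, exact test).

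Other features of the cut DNA did not pass the test. The shorter of both HindIII fragments beside a motif was above the median of 1153.5 bp at 50.4% of listed and 49.9% of unlisted motifs (odds ratio 1.02, 0.757 to 1.38, exact p = 0.941, adjusted p = 0.941). The nearest DpnII motif was farther than the median of 146.5 bp at 45.6% and 51.0% (0.803, 0.594 to 1.08, exact p = 0.141, adjusted p = 0.218). With the farther of the DpnII motifs on both sides, the odds ratio was 0.663 (adjusted p = 0.0216, exact test). With 7 properties in 1 logistic model (n = 1183 motifs), added after the data were seen, the odds ratios were 1.61 for a gene start within 10 kb (adjusted p = 0.0502), 2.58 for an exon (adjusted p = 0.0211), 1.56 for GC content (adjusted p = 0.0169) and 1.60 for a listed neighbour (adjusted p = 0.0311).

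Taken as a whole, the distal motifs showed less dependence of listing on GC content than the motifs at 15 to 33 Mb. By region the 2 parts overlapped. At 15 to 33 Mb, 69.8% of listed and 41.8% of unlisted motifs were above the same GC value (odds ratio 3.25, 2.35 to 4.51). The ratio of both odds ratios, distal over nearer, was 0.448 (likelihood ratio test of the interaction, n = 2277 motifs, p = 0.000246, adjusted p = 0.00418). In the distal regions the listed share was 16.1% of 205 motifs under 40% GC and 26.6% of 154 motifs at 50% GC or more, whereas in the nearer regions it was 10.7 and 38.9%. The difference rested on the region that began 20.02 Mb from Pou5f1: without it the ratio was 0.733 (n = 1720 motifs, adjusted p = 0.334), and without the other nearer region 0.244. That region had an odds ratio of 5.96 (3.54 to 10.4). The other nearer region had 1.99 (1.28 to 3.10), below the 3.13 of the distal Dlgap1 region. The Birc6, Arhgef33, Thada and Fbxo11 regions ran from 0.996 to 1.31. Motifs, not regions, were the units of the interaction test. For the other 6 properties tested the difference did not pass (adjusted p of at least 0.210). The odds ratios at 15 to 33 Mb were 1.47 for a gene body, 2.47 for a gene start within 10 kb, 3.26 for an exon and 2.12 for a listed neighbour.

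**Figure D4:**
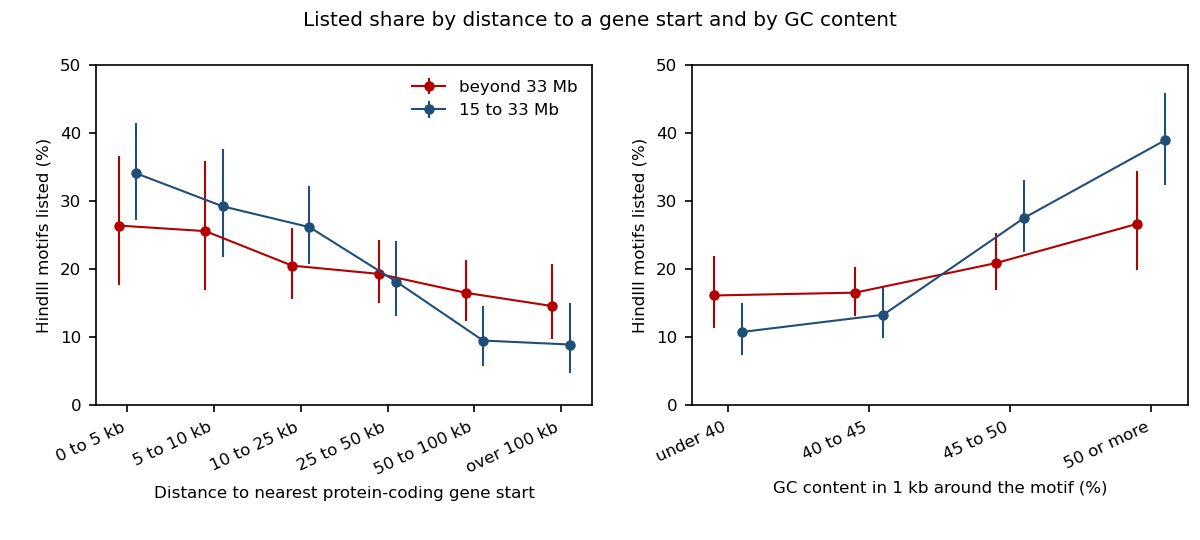
Percent of HindIII motifs listed by distance to the nearest protein-coding gene start (left) and by GC content of the surrounding 1 kb (right), with exact 95% intervals, beyond 33 Mb and 15 to 33 Mb from Pou5f1. Beyond 33 Mb the share goes from 26.4% within 5 kb to 14.5% over 100 kb, and from 16.1% under 40% GC to 26.6% at 50% GC or more.

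Listed sites were also next to each other more often than unlisted motifs were next to a listed one. Consecutive motifs are the ends of the same HindIII fragment, and the regions had been called as windows enriched in contacts. How far either accounts for this adjacency was not tested. The next motif along the chromosome was listed for 61 of 228 listed motifs (26.8%) and 167 of 955 unlisted motifs (17.5%), an odds ratio of 1.71 (1.20 to 2.42, exact p = 0.00272, adjusted p = 0.0154). The 228 sites formed 167 runs of consecutive motifs, of which 129 were single sites, 27 were pairs and 8 were triplets. The remaining runs held 4, 6 and 11 motifs. The run of 4 (83917336 to 83923005) lay in no gene. Without the Dlgap1 region the odds ratio for a listed neighbour was 1.41 (adjusted p = 0.210, exact test), with the neighbour at least 2 kb away it was 1.65 (adjusted p = 0.117, exact test), and without the run of 11, a choice made after the data were seen, it was 1.44 (adjusted p = 0.151, exact test).

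The run of 11 covered 25.4 kb (71157383 to 71182794) at the 3′ end of Dlgap1, which encodes a postsynaptic scaffold protein, and 7 of its motifs lay in the gene. All 11 lay in the stretch covered in both replicates. Dlgap1 (70318413 to 71170753, plus strand) began upstream of the region and held 18 listed motifs of 105 inside it, the most of any gene by count and 17.1% by share. Downstream of the run, Tgif1 (71193545 to 71202886, minus strand) had 3 of 4 motifs listed. Myl12b, a regulatory light chain of nonmuscle myosin, had 2 of 5, and Myom1, a protein of the sarcomeric M band, had 4 of 30. Emilin2 had 2 of 14, neither of them in a stretch of replicate 2. Beside Myl12b, the gene that the annotation calls 2900073G15Rik (Myl12a, a further regulatory light chain of nonmuscle myosin) had 1 of 3 motifs listed and a site 555 bp upstream of its start. The longest stretch without a site, 93.4 kb with 34 unlisted motifs between its ends, lay inside Dlgap1 (70932594 to 71026040).

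In the Birc6 region, Birc6 (74927635 to 75103113), a very large ubiquitin-conjugating enzyme that inhibits apoptosis, had 9 of 46 motifs listed, 7 of them in the stretch of replicate 2, and a site 1465 bp upstream of its start. Nlrc4 had 4 of 10 and the zinc transporter gene Slc30a6 had 2 of 9, all in stretches called in both replicates. Ttc27, a tetratricopeptide repeat protein, had 4 of 39. Ltbp1, which encodes a protein that binds latent TGF-beta, lay in the region with its start only and had 3 of 10 motifs listed. No site of Ttc27 or Ltbp1 lay in a stretch of replicate 2, since that replicate's region ended before both genes. The median spacing of sites was 15.2 kb here, against 5.84 kb in the Dlgap1 region, 16.5 kb in the Arhgef33 region, 9.48 kb in the Thada region and 12.3 kb in the Fbxo11 region.

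In the Arhgef33 region, Arhgef33 (80706747 to 80788028), named as a guanine nucleotide exchange factor, had 7 of 28 motifs listed, all in the stretch called in both replicates. Srsf7, a splicing factor of the SR family, had 2 of 5, and Dhx57, a helicase family member, had 2 of 19, also in that stretch. Galm had 4 of 13 and Hnrpll, an RNA-binding splicing regulator, had 2 of 17, all in stretches of replicate 1 alone. The predicted gene Gm10190 held no HindIII motif and had a site 1216 bp upstream. Sites of this region thus split between both kinds of stretch, 12 in the part called in both replicates and 13 in the part of replicate 1 alone.

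In the Thada region, Thada (84589396 to 84865536) had 14 of 80 motifs listed, none of them in the stretch of replicate 2, which ended before the gene. Mta3 (84105503 to 84223055), a subunit of the NuRD chromatin remodelling complex, had 10 of 30 motifs listed, and Eml4, a microtubule-binding protein, had 7 of 47. Kcng3, a modulatory potassium channel subunit, had 2 of 10, and Haao had 1 of 2. The sites of Mta3, Eml4, Kcng3 and Haao lay in stretches called in both replicates. Rpl21-ps7, annotated as protein-coding despite a pseudogene name, held no motif and had a site 1047 bp from its start. The longest stretch without a site was 78.4 kb (83688933 to 83767373).

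In the Fbxo11 region, Fbxo11 (88390199 to 88464631), the substrate receptor of an SCF ubiquitin ligase, had 7 of 26 motifs listed. Ttc7 (87682226 to 87781110) had 6 of 17. Calm2 (87832752 to 87846275) had 5 of 6 motifs listed, and all 5 belonged to the run of 6 (87835260 to 87851424). Epcam, an epithelial adhesion molecule also found on ES cells, had 2 of 3. All these sites lay in stretches called in both replicates. Msh6, a DNA mismatch repair protein, held 1 motif that was not listed, with a site 932 bp upstream of its start. In this region the longest stretch without a site was 88.9 kb (87592401 to 87681340).

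**Figure D5:**
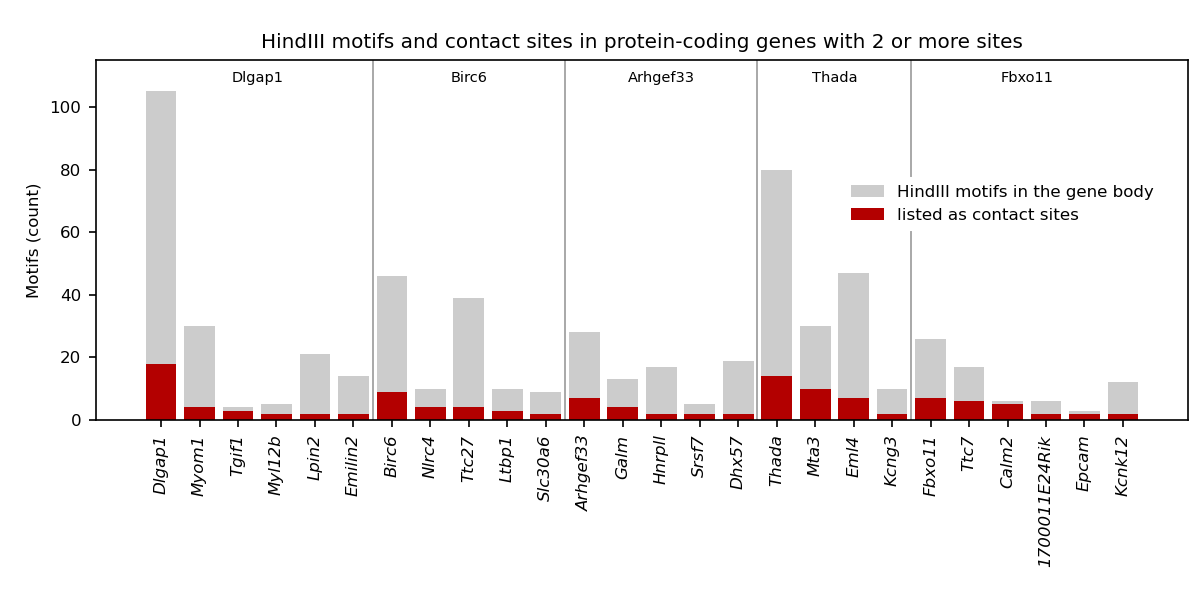
HindIII motifs in the gene body inside the replicate 1 regions (grey bars) and the listed ones among them (red, drawn over the grey), for 26 protein-coding genes with at least 2 listed sites, grouped by region. Dlgap1 has the most listed sites (18 of 105), while Calm2 (5 of 6), Tgif1 (3 of 4) and Epcam (2 of 3) have most of their few motifs listed.

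By function, the lists of genes described here held few motifs each, counted in the replicate 1 extents. The lists were short and chosen with earlier results of these data known. How many of their genes lay in a region is thus not a result. Both genes in the TGF-beta and Nodal list, Tgif1 and Ltbp1, lay in a region, with 6 of 14 motifs listed. The listed motifs of Ltbp1 lay in stretches of replicate 1 alone. In the calcium and ion transport list, 3 of 4 genes lay in a region, with 9 of 28 motifs listed. These were Calm2, Kcng3 and the potassium channel gene Kcnk12 (2 of 12). Of the 3 ubiquitin-related genes, Birc6 and Fbxo11 had sites and Socs5, a suppressor of cytokine signalling, had 0 of 6 motifs listed, giving 16 of 78 in all. Myl12a, Myl12b and Myom1, all 3 genes in the myosin and M band list, had 7 of 38. The chromatin list had 1 of 4 genes in a region, Mta3, with 10 of 30. Zfp36l2, which promotes mRNA decay and was 1 of 2 genes in the RNA binding list, had 0 of 1 motif listed. Neither the 2 Ras and MAP kinase genes nor the 2 sterol transport genes lay in a replicate 1 extent, although the former (Sos1 and Map4k3) lay in the stretch of the Arhgef33 region called in replicate 2 alone, and Epcam was the only gene in its list. For comparison, 19.2% of all motifs in the regions were listed, and no list was tested.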

How the data were processed

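The deposited lists give positions only, the coordinates of enriched regions in each of 2 replicates and of contacted HindIII sites in regions found in both. The authors selected reads beginning with the bait primer, mapped the remainder to mm9 with BWA, matched them to HindIII sites, scored windows against a local background and kept those below a permutation-based false discovery rate. The columns used hold coordinates, counted here from 1. The files used give no read numbers per site, so no precision was derived from depth; the study states library totals, which were not used here.

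Sites at least 33 Mb from the Pou5f1 start were taken. HindIII motifs (AAGCTT) of the reference NCBIM37, the same assembly as mm9, that lay in the replicate 1 regions were the denominator, and genes were taken from GENCODE M1. GC content was measured over 1000 bp. Properties of listed and unlisted motifs were compared in R 4.3.3 by two-sided exact conditional Mantel-Haenszel tests with region as stratum, with 15 to 33 Mb as the comparison part, and differences by likelihood ratio tests. Adjusted p-values are Benjamini-Hochberg over 17 tests. In an alternative only that test's p was replaced in the adjustment. The tests were tested on simulated data. Counts and intervals used Python 3.11.15 with SciPy 1.17.1.

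Named genes were, per region, the 5 with the most listed sites in the body and the 2 with a start nearest to a site, and genes of 10 lists; 1 gene and the list that rests on it are not reported here. A list symbol missing from the annotation (Myl12a) was matched through RefSeq synonyms. Members and lists were chosen with earlier results of these data known. Alternatives left out a region or replicate, or changed the window, gene set, motifs or measure of each property. Sonication-based libraries were not analysed here.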

Additional observations from a re-analysis of the deposited data

Results flagged for a closer look

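The dependence of listing on GC content differed between the sites beyond 33 Mb and those at 15 to 33 Mb from Pou5f1, with a ratio of odds ratios of 0.448 (likelihood ratio test of the interaction, n = 2277 motifs, adjusted p = 0.00418). It was flagged because the same contrast gave a smaller odds ratio in the distal regions (1.46) than in the nearer ones (3.25), by a test of the difference itself. The ratio was 0.733 (n = 1720 motifs, adjusted p = 0.334) without the nearer region that began 20.02 Mb from Pou5f1. By region the parts overlapped: the odds ratio was 3.13 in the distal Dlgap1 region and 1.99 in the other nearer region. Motifs, not regions, were the units of the test.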

How the results depend on the processing

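Over all results and alternatives other than leaving out a replicate, 92 values stayed in the same direction with the same call (or, where untested, within the spread), and the exceptions follow. For a gene start within 10 kb, the odds ratio no longer passed without the Dlgap1 region (1.59), without the Thada region (1.51), at 5 kb (1.63), with starts of every biotype (1.44) or of every transcript (1.43), or in the joint model (1.61). For exons it was 2.26 without the Birc6 region. For GC content it was 1.18 without the Dlgap1 region, 1.52 without the Thada region, 1.43 with motifs that had a unique flank and 1.42 with both flanks unique. For a listed neighbour it was 1.41 without the Dlgap1 region, 1.65 with the neighbour at least 2 kb away and 1.44 without the run of 11. For a unique flank the call was lost, and the lower bound of 1.68 became 1.20 in stretches covered in both replicates, 1.19 without the Dlgap1 region, 1.18 without the Birc6 region and 1.07 without the Fbxo11 region, and its range on leaving out a replicate was 1.20 to 1.68. The odds ratio for fragment length, which did not pass, turned below 1 without the Arhgef33 region (0.951), without the Thada region (0.968) or with the mean of both fragments (0.995). Calls gained were gene bodies without the Dlgap1 region (1.66), the farther DpnII motif (0.663) and the listed share against 15 to 33 Mb with both flanks unique (0.770). The difference in the GC odds ratio was 0.733 without the nearer region that began 20.02 Mb from Pou5f1. Of the sites, 78.5% lay in the regions of replicate 2, against 73.1% of the length of the replicate 1 regions. Gene starts per Mb ranged from 9.34 to 9.68 on leaving out a replicate and were 15.1 with every biotype. The cause of these changes was not tested. Because the table lists sites only in the extents of replicate 1, leaving out replicate 1 meant keeping the motifs that replicate 2 also covered, and leaving out replicate 2 changed nothing by construction. No paired analysis was possible because the design has 1 group.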
